A study of Mus musculus with 78 samples.

Results

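The genes that mark oligodendrocyte precursors and the cells they give rise to were followed through mouse brain development: Olig1, Olig2, Nkx2-2, Pdgfra, Cspg4, Gpr17, Bcas1 and Enpp6. They are 8 of the 18194 genes with a probe set of their own on the arrays, and where a gene had several probe sets the brightest, by its mean across the 78 arrays, was read. The arrays measured total RNA of mouse brain in 26 groups of 3 labelled biological replicates at embryonic day 14 (E14), the day of birth (P0) and postnatal day 14 (P14). All values are log2 RMA values as deposited, so a difference of 1 is a doubling of the probe set's signal.

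Wild-type brains came from a mixed background A and a mixed background B at E14, P0 and P14, and from an inbred background (WT129s6 in the sample titles) at P0 and P14. Mutants of Lis1 (Pafah1b1, a regulator of the motor protein dynein) carried 1 knockout allele (ko/+) or a knockout and a conditional allele (ko/cko), both at all 3 ages. Mutants of Ndel1, which encodes a LIS1-binding protein, had the same pair of genotypes at all 3 ages. Another Ndel1 ko/+ group was inbred (P0), and 1 more carried a mixed background label (P14). The titles of both Lis1 groups at P0 also hold the word Mix, without A or B. Brains without Dcx, an X-linked microtubule-binding protein gene, were ko/Y (E14 and P0), and brains labelled as lacking 14-3-3 epsilon (Ywhae) were ko/ko at E14 and, inbred, at P0. The driver that recombined the conditional alleles, any pooling of animals and the mixed background that belongs to each mutant line are not given in the sources used here. Each mutant was therefore set against both mixed wild types.

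Oligodendrocyte precursors arise from ventral progenitors of the embryonic brain under Sonic hedgehog signalling, later also from dorsal ones, and migrate through the whole brain before some of them differentiate and make myelin. OLIG2 is the basic helix-loop-helix factor that specifies the lineage, OLIG1 is its relative with a larger role in maturation, and NKX2-2 is a homeodomain factor of the most ventral progenitors that reappears when precursors begin to differentiate. PDGFRA is the receptor through which platelet-derived growth factor keeps precursors dividing, and CSPG4 (NG2) is a proteoglycan on their surface. GPR17, a G protein-coupled receptor, BCAS1, a cytoplasmic protein of premyelinating cells, and ENPP6, a choline phosphodiesterase, mark committed and newly formed oligodendrocytes. Several of the genes are active elsewhere too: Olig1, Olig2 and Nkx2-2 in ventral neural progenitors, Pdgfra in meningeal fibroblasts and Cspg4 in mural cells of vessels.

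The promoters of Olig2, Nkx2-2 and Enpp6 are shown because these genes stand for specification, ventral patterning and late differentiation. The RefSeq promoter table (GRCm38.p6) matched 5 of the 8 genes. Each sequence is the 250 bases before the start of the gene, written on the gene's strand, with 3 kinds of short match in capitals: an E-box (CANNTG, the same pattern on both strands), a SOX-type match (ACAAAG or ACAATG on either strand) and TATAAA on the gene's strand.
Olig2, chr16:91225300-91225549, plus strand: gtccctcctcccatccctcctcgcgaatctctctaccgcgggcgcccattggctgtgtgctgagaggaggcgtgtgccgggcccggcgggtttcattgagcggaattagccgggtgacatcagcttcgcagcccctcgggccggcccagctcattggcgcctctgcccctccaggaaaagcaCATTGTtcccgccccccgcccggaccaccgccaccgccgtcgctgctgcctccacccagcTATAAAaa
Nkx2-2, chr2:147186403-147186652, minus strand: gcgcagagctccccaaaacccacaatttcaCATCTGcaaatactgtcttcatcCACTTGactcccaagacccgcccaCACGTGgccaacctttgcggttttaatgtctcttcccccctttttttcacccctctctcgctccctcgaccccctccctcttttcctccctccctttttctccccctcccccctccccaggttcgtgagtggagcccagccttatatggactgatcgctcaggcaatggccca
Enpp6, chr8:46986637-46986886, plus strand: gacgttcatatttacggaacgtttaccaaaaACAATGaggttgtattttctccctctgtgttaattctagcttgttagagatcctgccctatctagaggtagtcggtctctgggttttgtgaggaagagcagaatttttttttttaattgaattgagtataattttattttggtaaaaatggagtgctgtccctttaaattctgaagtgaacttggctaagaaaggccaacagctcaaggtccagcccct
The Olig2 window holds no E-box, 1 SOX-type match whose first base lies 68 bases before the start, and TATAAA 8 bases before it. The Nkx2-2 window holds 3 E-boxes, at 220, 197 and 173 bases before the start, and neither of the other matches. The Enpp6 window holds 1 SOX-type match, at 219 bases. Of 32851 mouse promoters cut to the same length, 66.2% hold an E-box, 25.2% a SOX-type match and 7.59% TATAAA on the gene's strand. The windows differ in base composition: Olig2 has 22 CpG dinucleotides, Nkx2-2 has 8 and Enpp6 has 4, against a median of 6. These matches describe the letters of the windows only.

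Before the results, the arrays that stand apart are named. At E14, 6 arrays had low levels of 23 midbrain and hindbrain genes, with means of 4.51 to 4.77 against 6.06 to 6.63 on the other 18: mixed A replicates 2 and 3, replicates 1 and 3 of Lis1 ko/cko, replicate 1 of Lis1 ko/+ and replicate 2 of 14-3-3 epsilon ko/ko. At P0 and P14 the arrays fell on either side of the first principal component by group and without overlap. Mixed B, the Ndel1 ko/+ and ko/cko groups without a background label and, at P0, Dcx ko/Y lay on one side. All other groups lay on the other, among them the P14 Ndel1 ko/+ group with the mixed background label. The labels name no batch, so the mixed background, the mutant line and any shared processing cannot be told apart there. The targeted gene was low in the library group labelled Dcx ko/Y (Dcx 4.58 ± 0.26 at E14, SD, n = 3) and in inbred 14-3-3 epsilon ko/ko (Ywhae 9.83 ± 0.18 against 12.75 ± 0.05 in inbred wild type, SD, n = 3). Of the 3 E14 libraries labelled 14-3-3 epsilon ko/ko, 2 had Ywhae at 12.68 and 12.92, near wild type, and 1 at 9.97. Pafah1b1 in Lis1 ko/+ and ko/cko averaged 10.07 and 9.84 at E14 (mixed A 10.38, mixed B 10.43), 10.01 and 10.08 at P0 (10.51 and 9.95) and 10.21 and 10.36 at P14 (10.85 and 10.48), so that at P0 it was not below mixed B. Ndel1 in Ndel1 ko/+ and ko/cko averaged 9.45 and 9.82 at E14 (mixed A 9.90, mixed B 9.91), 9.33 and 9.56 at P0 (9.89 and 9.74) and 10.01 and 10.00 at P14 (10.40 and 10.32), so that E14 ko/cko lay near wild type. Ndel1 was not lower than in wild type in the libraries labelled Ndel1 ko/+ inbred (10.06 ± 0.17 against 9.91 ± 0.09, SD, n = 3) or in the P14 group with the mixed background label (10.55 ± 0.04, SD, n = 3, against 10.40 ± 0.06 in mixed A). Markers of neurons were high on every array (mean of 8 genes 10.66 to 12.07), as the tissue label says.

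**Figure D1:**
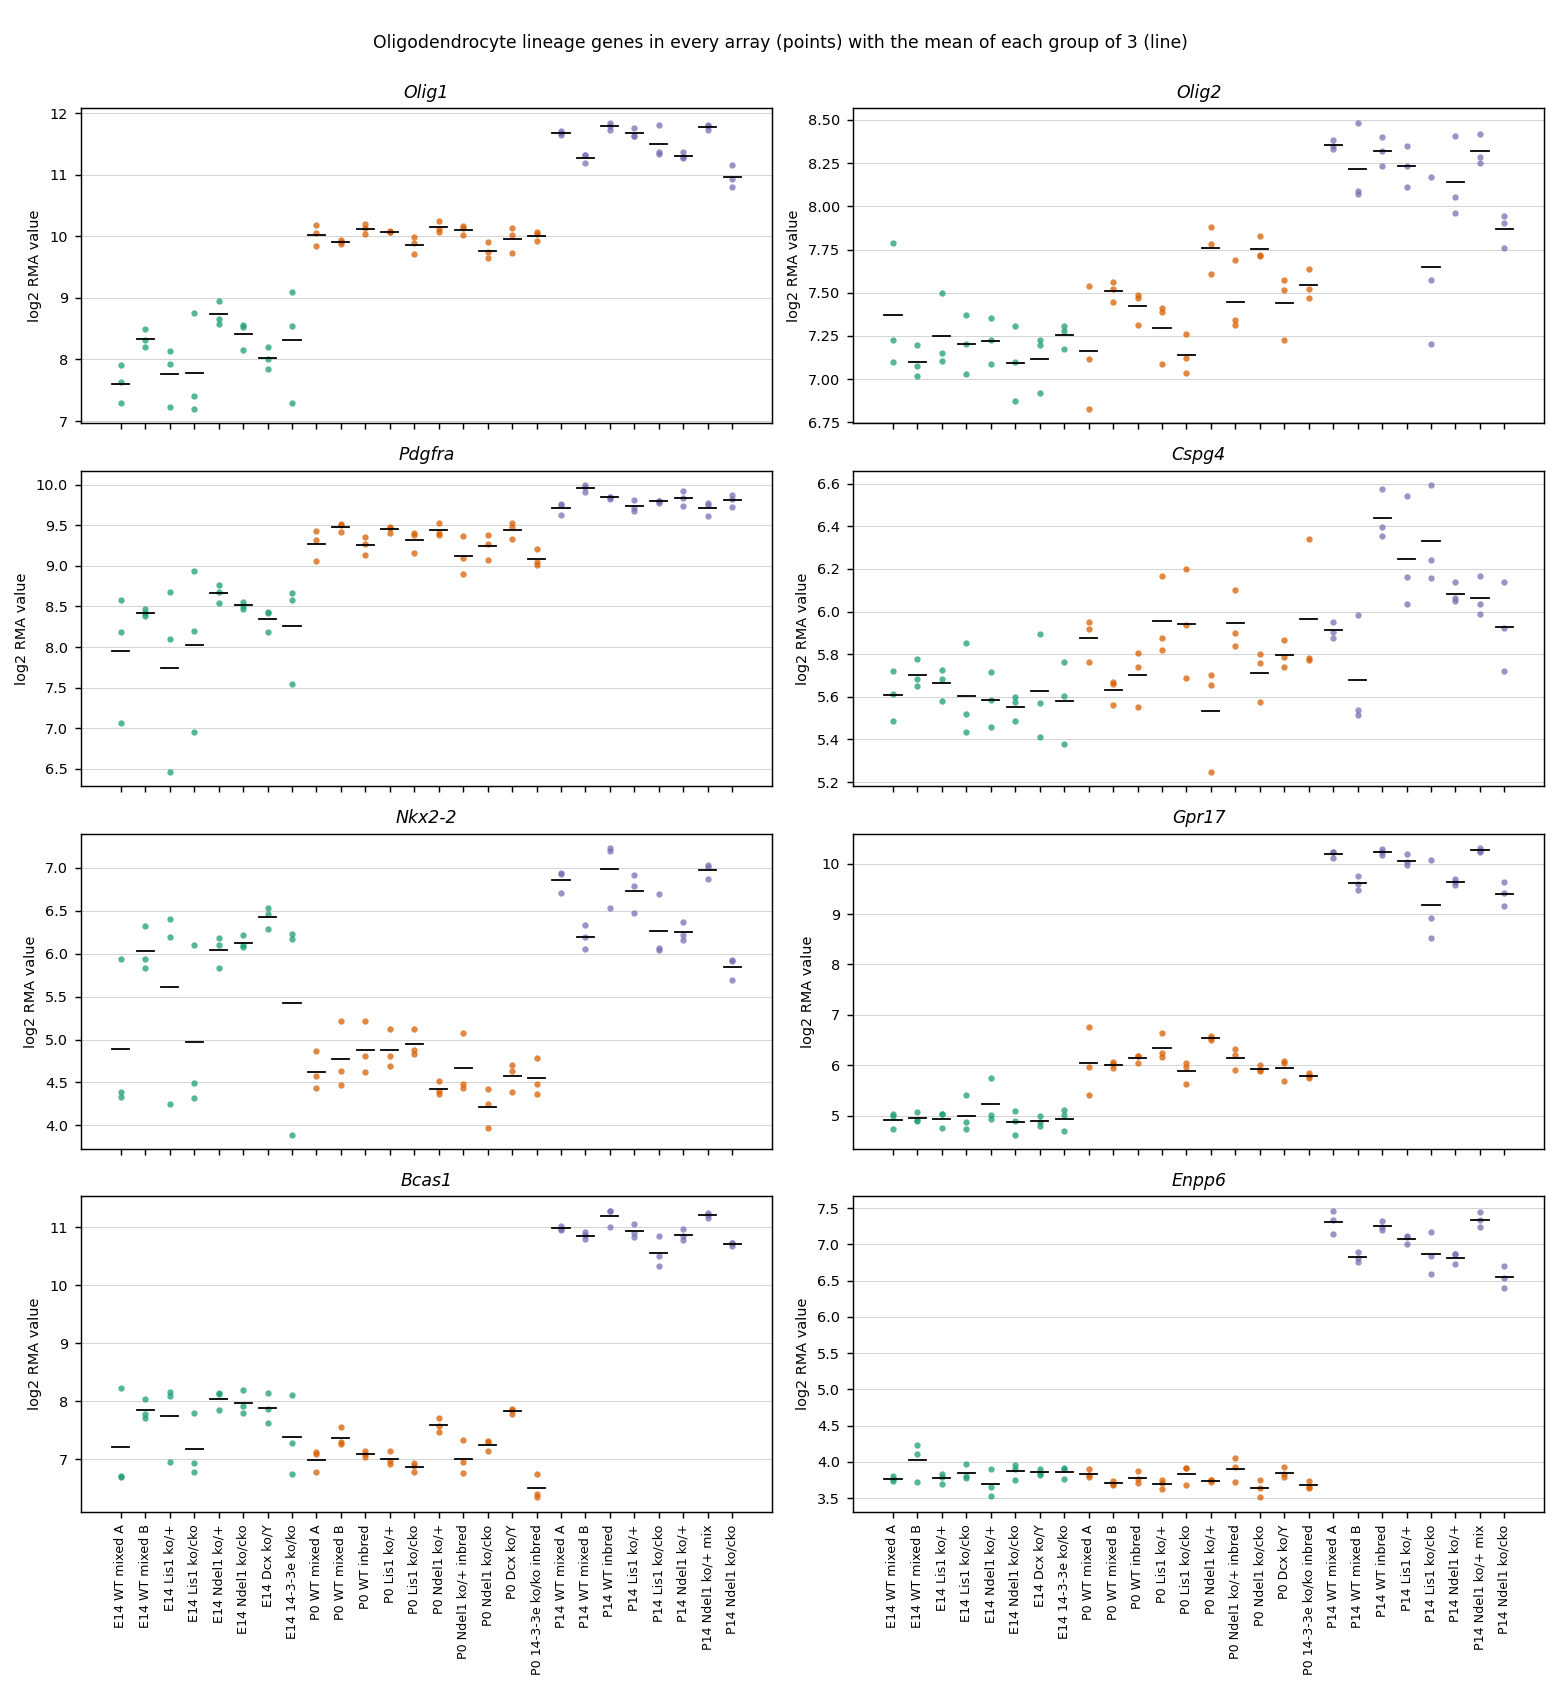
Log2 RMA value of each of the 8 genes (vertical axes, scaled per gene) in each of the 26 groups (horizontal axis, ordered by age); points are arrays and lines are means of 3 arrays. Gpr17, Bcas1 and Enpp6 lie at 8.52 or above, 10.33 or above and 6.40 or above at P14, higher than on any earlier array, while Nkx2-2 has its lowest median at P0 (4.62).

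The first question was how the genes move from E14 to P14 in wild-type brain. In the mixed backgrounds Olig1 and Gpr17 rose at both steps, Pdgfra rose by birth, and Bcas1, Nkx2-2 and Olig2 rose after birth, while Cspg4 did not pass the test at either step on its brighter probe set. Of the 8 genes, 3 rose and none fell from E14 to P0 in both mixed backgrounds, where 49.8% of all 12865 genes tested were called (limma, Benjamini-Hochberg adjusted p below 0.05 against both). From P0 to P14, 6 of 8 rose in the mixed backgrounds, where 56.4% of genes were called, and 8 of 8 in the inbred background, where 71.7% were. Enpp6 is in both later counts, but it passed the filter on low values (5.253, the median of all values) only through its P14 groups and so had to differ. Without it 5 of 7 genes rose in the mixed backgrounds and 7 of 7 in the inbred one. In these bulk samples, fewer cells of a type and less RNA per cell cannot be told apart.

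Among the transcription factor genes, Olig1 in mixed A read 7.91, 7.28 and 7.63 at E14, 10.18, 9.84 and 10.06 at P0, and 11.71, 11.66 and 11.68 at P14. In mixed B it read 8.31, 8.49 and 8.20 at E14, 9.88, 9.94 and 9.90 at P0, and 11.33, 11.20 and 11.32 at P14. No array of 1 age overlapped another age. Olig1 rose by 2.00 ± 0.11 (SE) before birth, 3.99-fold (limma adjusted p = 6.73e-11), and by 1.52 ± 0.11 afterwards, 2.86-fold (limma adjusted p = 2.05e-10). In inbred brains it went from 10.04, 10.13 and 10.21 at P0 to 11.79, 11.85 and 11.73 at P14, a rise of 1.67.

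Olig2, next to Olig1 on chromosome 16, followed another course. In mixed A its values were 7.23, 7.10 and 7.79 at E14, 7.54, 7.12 and 6.83 at P0, and 8.35, 8.33 and 8.38 at P14. In mixed B they were 7.02, 7.07 and 7.20, then 7.56, 7.52 and 7.45, then 8.48, 8.09 and 8.07. The E14 and P0 arrays overlapped in mixed A and not in mixed B, and all P14 arrays lay above both. The difference before birth was -0.21 in mixed A and 0.41 in mixed B, with opposite signs, and the rise after birth was 0.95 ± 0.16 (SE; limma adjusted p = 0.000527).

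Nkx2-2 had its lowest values at birth in mixed B and rose after birth in every background. Mixed B read 5.94, 5.83 and 6.32 at E14, 5.21, 4.47 and 4.63 at P0, and 6.34, 6.19 and 6.05 at P14. In mixed A only E14 replicate 1 (5.94) matched those E14 values, while replicates 2 and 3, both among the 6 low-region arrays, read 4.39 and 4.33. The P0 arrays of mixed A stood at 4.87, 4.43 and 4.57 and its P14 arrays at 6.94, 6.92 and 6.71. The difference from E14 to P0 was -0.76 ± 0.30 (SE; limma adjusted p = 0.549), and from P0 to P14 Nkx2-2 rose by 1.83 ± 0.30 in the mixed backgrounds (limma adjusted p = 0.000257) and by 2.10 in the inbred one. Every P0 array of any genotype read 5.22 or less, under the filter on low values.

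The receptor gene Pdgfra was already high at birth. Mixed A read 8.58, 8.19 and 7.07 at E14, 9.31, 9.43 and 9.05 at P0, and 9.75, 9.63 and 9.76 at P14, and mixed B read 8.42, 8.47 and 8.38, then 9.42, 9.51 and 9.52, then 9.97, 9.99 and 9.91. The low E14 array of mixed A is replicate 3. Pdgfra rose by 1.19 ± 0.21 (SE) before birth (limma adjusted p = 0.000168), and the later difference of 0.46 ± 0.21 did not pass (limma adjusted p = 0.0735). In the inbred background the difference after birth was 0.59 ± 0.21 (limma adjusted p = 0.0152), which became 0.53 (limma adjusted p = 0.0529) without P0 inbred wild-type replicate 3. A dimmer Pdgfra probe set, 1421916_at, moved the other way there: it averaged 7.49 ± 0.35 at P0 and 6.88 ± 0.09 at P14 in inbred brains (SD, n = 3), a difference of -0.60 ± 0.22 (SE; limma adjusted p = 0.0183 with every probe set tested on its own).

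The values of Cspg4 differed between its probe sets as well. The brighter one, 1450944_at, read 5.72, 5.49 and 5.62 at E14, 5.95, 5.77 and 5.92 at P0 and 5.95, 5.88 and 5.91 at P14 in mixed A. Before birth its difference was 0.27 in mixed A, where the E14 arrays lay below all later ones, and -0.07 in mixed B, where they overlapped, so that the signs were opposite. After birth the difference in the mixed backgrounds was 0.04 ± 0.12 (SE; limma adjusted p = 0.953), and the arrays overlapped. In inbred brains the same probe set went from 5.55, 5.81 and 5.74 to 6.57, 6.40 and 6.35, a rise of 0.74 ± 0.12 (SE; limma adjusted p = 6.45e-06). The second probe set, 1423341_at, rose at every step: by 0.82 before birth, by 0.99 after it in the mixed backgrounds and by 1.13 in the inbred one (limma adjusted p 0.000111, 1.73e-05 and 1.38e-07 with every probe set tested on its own).

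The 3 genes of committed cells had the largest differences after birth among the 8. Gpr17 in mixed A read 5.04, 4.74 and 4.98 at E14, 6.77, 5.98 and 5.41 at P0, and 10.23, 10.11 and 10.23 at P14, and mixed B read 4.92, 5.06 and 4.89, then 5.95, 6.07 and 6.02, then 9.60, 9.47 and 9.77. The ages did not overlap in either background. Gpr17 rose by 1.09 ± 0.19 (SE) before birth (limma adjusted p = 7.32e-05) and by 3.87 ± 0.19, 14.6-fold, after it (limma adjusted p = 2.04e-13).

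Bcas1 was well expressed before birth and did not rise until after it. In mixed B it read 7.72, 8.04 and 7.79 at E14, 7.57, 7.30 and 7.27 at P0, and 10.92, 10.79 and 10.86 at P14. In mixed A it read 8.23, 6.71 and 6.70 at E14, where the 2 low values belong to low-region arrays, then 7.09, 6.78 and 7.12, then 11.02, 10.98 and 10.96. Bcas1 rose by 3.73 ± 0.24 (SE), 13.3-fold, from P0 to P14 (limma adjusted p = 1.6e-11), after a difference of -0.34 from E14 to P0 (limma adjusted p = 0.529).

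Enpp6 stayed between 3.51 and 4.24 on all 54 arrays of E14 and P0, near the low end of the scale. At P14 its wild-type arrays read 7.34, 7.14 and 7.46 in mixed A, 6.89, 6.81 and 6.76 in mixed B and 7.32, 7.20 and 7.23 in inbred brains. The difference was 3.30 ± 0.11 (SE), 9.82-fold, in the mixed backgrounds and 3.47 ± 0.11 in the inbred one, given without a test because the filter fixed its direction. Its second probe set showed the same step in mixed A, from 3.56 ± 0.21 at P0 to 6.24 ± 0.15 at P14 (SD, n = 3).

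**Figure D2:**
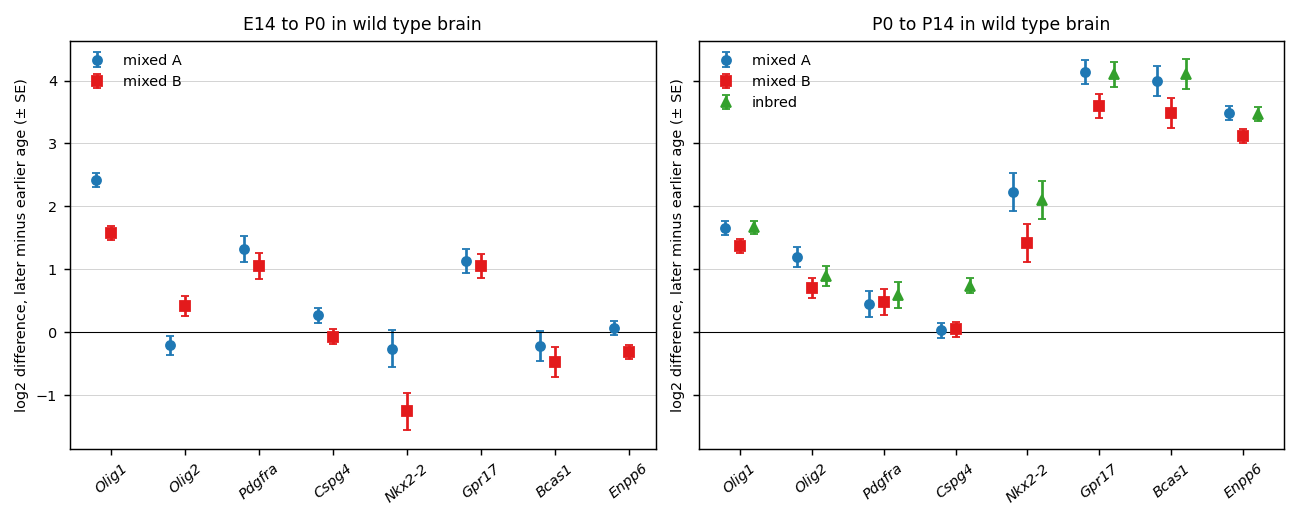
Log2 difference between ages (vertical axis, later minus earlier, ± SE of the limma fit over 24 wild-type arrays) for each gene (horizontal axis) in mixed A, mixed B and, after birth, inbred wild-type brain. Gpr17, Bcas1 and Enpp6 lie above 3 in every background after birth, Nkx2-2 is at -1.26 in mixed B before birth, and Cspg4 leaves 0 after birth in the inbred background alone (0.74).

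The ages appear to have been normalized separately, and the median gene itself moved by -0.19 before birth and by 0.13 (mixed) and 0.04 (inbred) after it. Relative to the median gene Olig1 rose by 2.19 before birth. Without the 6 low-region arrays, 5 of 8 genes were called from E14 to P0, among 44.6% of 12876 genes: Olig1 rose by 1.85, Gpr17 by 1.03 and Pdgfra by 0.87, and Nkx2-2 and Bcas1 fell by 1.28 ± 0.29 and by 0.85 ± 0.15 (SE; limma adjusted p 0.000701 and 0.000796). That setting was chosen after the arrays had been seen, and it leaves mixed A with 1 array at E14, assumed to vary like the other groups.

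The other genes of the lineage set the members in context. Over all 12865 genes, 4410 rose and 2848 fell from P0 to P14 in the mixed backgrounds (56.4% called). Of 16 tested genes for myelin, all 16 rose from P0 to P14 in the mixed backgrounds (median 3.23 against 0.13 over all genes tested), led by Mobp (5.40) and Mog (4.97), which encode structural myelin proteins, and Ugt8a (4.95), the enzyme of galactolipid synthesis. Like Enpp6, any listed gene that passed the filter only through its P14 groups had to rise, and such genes were not counted. The mean of the myelin list had a median of 5.20 over the P0 arrays, under the filter of 5.253. The count of 16 is therefore a description. Of 20 genes of committed and premyelinating cells, 13 rose and 4 fell (median 1.16), led by Ugt8a. Of 20 genes listed as precursor markers, 13 rose and 4 fell (median 0.53), led by Gpr37l1 (4.92). How far each listed gene is particular to its cell type was not tested. Lineage transcription factor genes went the other way on balance, with 3 rising and 10 falling of 18 (median -0.64): Myrf, the regulator of myelin genes, rose by 2.87 and Sox10 by 1.97, while Tcf7l2 fell by 2.66. Of 16 signalling genes 8 rose and 5 fell (median 0.19), with Erbb3 up by 2.03 and Bmp4 up by 1.95.

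Before birth the lists went different ways, while over all 12865 genes 1904 rose and 4509 fell. Of the myelin genes 1 rose and 2 fell (median 0.05 against -0.19 over all genes), with Ppp1r14a down by 1.36 and Cnp up by 0.66. Committed-cell genes were split 6 and 6, precursor markers were 8 up and 5 down (Tnr up by 1.23, Lrrn1 down by 1.25), transcription factor genes 2 up and 13 down (median -0.84; Hes1 fell by 1.88), and signalling genes 3 up and 9 down (median -0.59; Shh fell by 1.40). In inbred brains after birth, where 4884 of all genes rose and 4343 fell, the counts were 16 up and 0 down for myelin, 15 and 3 for committed cells, 13 and 5 for precursors, 3 and 12 for transcription factors and 8 and 5 for signals. The limit set by the filter on low values holds for these counts too. Markers of other cells moved as well: of 10 astrocyte genes 9 rose after birth in the mixed backgrounds and all 9 microglial genes rose, while 9 of 9 genes of dividing cells fell. For the cells that share Pdgfra and Cspg4, 1 of 9 mural genes rose and 1 of 10 meningeal genes fell in the mixed backgrounds, against 4 up and 2 down of 9 and 0 up and 3 down of 10 in the inbred one. Their part in the values of Pdgfra and Cspg4 was not tested.

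**Figure D3:**
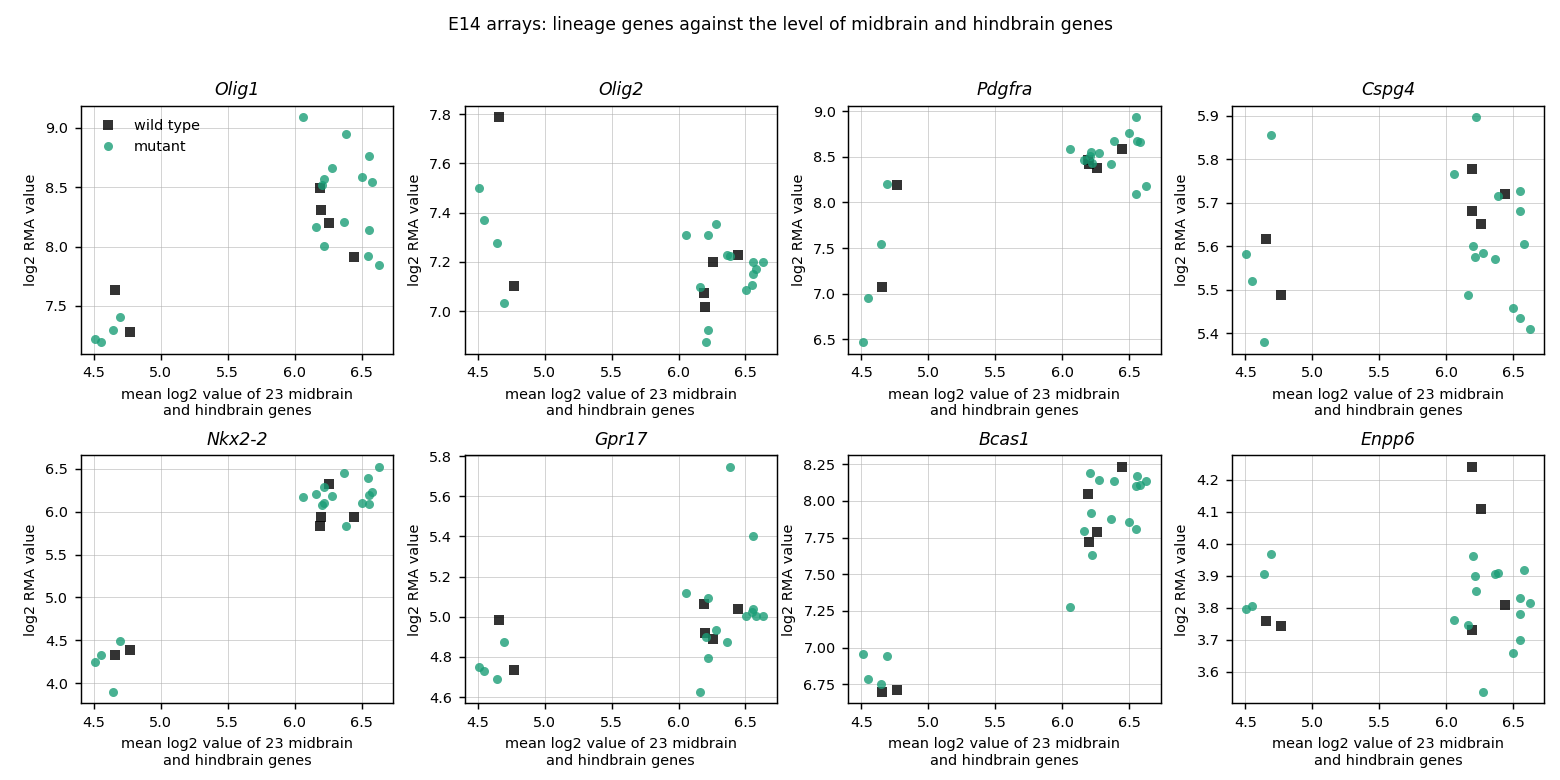
Log2 RMA value of each gene (vertical axes) against the mean log2 value of 23 midbrain and hindbrain genes (horizontal axis) on the 24 E14 arrays; squares are wild type and circles mutants. On the 6 arrays at 4.77 or below, Nkx2-2 lies at 3.89 to 4.49 and Bcas1 at 6.70 to 6.95, below each of the other 18 arrays, while Olig2, Cspg4, Gpr17 and Enpp6 overlap them.

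At E14 the level of midbrain and hindbrain genes went with 4 of the 8 genes. On the 6 low arrays Nkx2-2 ran from 3.89 to 4.49, against 5.83 to 6.53 on the other 18, and Bcas1 from 6.70 to 6.95, against 7.28 to 8.23. Olig1 ran from 7.19 to 7.63 against 7.84 to 9.09, so that these 3 genes did not overlap, and Pdgfra from 6.46 to 8.20 against 8.10 to 8.94. Olig2 stood at 7.03 to 7.79 on the low arrays and at 6.87 to 7.36 on the others, and Cspg4 (5.38 to 5.85 and 5.41 to 5.90), Gpr17 and Enpp6 overlapped too. Both wild-type and mutant arrays were among the 6. Markers of meninges were lower there (mean of 12 genes 4.96 to 7.65 against 7.44 to 8.25), those of neurons were lower (10.66 to 10.88 against 10.97 to 11.27) and those of dividing cells were higher (9.79 to 10.02 against 8.93 to 9.59). No test was made, because the arrays were set apart by their own values. The share of all genes without overlap was not counted, and the part of these markers was not tested.

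The second question was whether loss of a gene of the LIS1 and dynein pathway changed the 8 genes at E14. The spread between arrays was wide at this age, with SEs of 0.60 for Nkx2-2, 0.48 for Pdgfra, 0.39 for Bcas1 and 0.38 for Olig1. Of the 8 genes 6 were tested at this age, since the group means of Gpr17 and Enpp6 stayed under the filter. No gene was called against both mixed wild types in Lis1 ko/+, Lis1 ko/cko, Ndel1 ko/cko or 14-3-3 epsilon ko/ko, where 0% of 11744 genes were called (limma; 42, 837, 66 and 65 genes at an unadjusted p under 0.05, and 0 of the 6). None was called in Ndel1 ko/+, where 0.0341% of genes were called, or in Dcx ko/Y, where 0.0426% were (0 of the 6 at an unadjusted p under 0.05 in each).

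Olig1 in E14 Ndel1 ko/+ read 8.95, 8.67 and 8.58, above the highest array of mixed B (8.49) and of mixed A (7.91). No other tested member in any E14 mutant had all 3 arrays above or below both wild types. The difference was 0.76 ± 0.38 (SE; limma adjusted p = 1), 1.12 against mixed A and 0.40 against mixed B. Without the 6 low-region arrays the difference against mixed A was 0.82. Nkx2-2 in Dcx ko/Y read 6.52, 6.28 and 6.46, above all mixed A arrays but overlapping mixed B (6.32 at the highest). Its difference was 0.96 ± 0.60, and 0.44 without the 6 low-region arrays. The 3 arrays labelled 14-3-3 epsilon ko/ko spread from 3.89 to 6.23 for Nkx2-2 and from 7.30 to 9.09 for Olig1, the lowest being the low-region array in both. No member was called either without the 6 low-region arrays, which leaves 1 array each of mixed A and Lis1 ko/cko, or without the 2 arrays that keep Ywhae, which leaves 1 of 14-3-3 epsilon ko/ko. A lone array was assumed to vary like the other groups, so these fits show little about stability.

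At P0 again 6 of the 8 genes were tested, all but Nkx2-2 and Enpp6, and none was called against both mixed wild types. The background of calls was 0% of 11780 genes in Lis1 ko/+ (limma; 183 genes and 0 of the 6 at an unadjusted p under 0.05), 0.331% in Lis1 ko/cko (0 of the 6), 4.05% in Ndel1 ko/+ (1 of the 6), 0.849% in Ndel1 ko/cko (0 of the 6) and 0.0255% in Dcx ko/Y (1 of the 6). Bcas1 in Dcx ko/Y, at 7.79, 7.85 and 7.86, lay above every array of mixed A (7.12 at the highest) and mixed B (7.57). Its difference was 0.65 ± 0.13 (SE; limma adjusted p = 0.873), made of 0.84 against mixed A (limma adjusted p = 3.12e-05) and 0.46 against mixed B (limma adjusted p = 0.37). Against mixed A alone, which lies on the other side of the first principal component, 1 member was called among 30% of all genes.

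At P0 Olig2 and Gpr17 had their highest group means in Ndel1 ko/+, but neither was called against both mixed wild types. Olig2 read 7.88, 7.61 and 7.78 there and 7.83, 7.71 and 7.72 in Ndel1 ko/cko, both above every mixed A array (7.54 at the highest) and every mixed B array (7.56), with differences of 0.42 ± 0.14 in each (SE; limma adjusted p = 0.41 and 0.726). Gpr17 read 6.50, 6.54 and 6.59 in Ndel1 ko/+, above mixed B but overlapping mixed A, where replicate 1 read 6.77, and differed by 0.51 ± 0.20 (limma adjusted p = 0.178). Without mixed A replicate 1 the Gpr17 difference was 0.69 and passed (limma adjusted p = 0.036). Of 9 fits with 1 array left out, this was the only 1 with a call, so it is no test. The dimmer Pdgfra probe set, 1421916_at, averaged 6.35 ± 0.03 in Ndel1 ko/cko at P0 (SD, n = 3), with mixed A at 7.26 ± 0.15 and mixed B at 7.01 ± 0.18, and fell by 0.79 ± 0.14 (SE; limma adjusted p = 0.00841 with every probe set tested on its own), while the brighter one differed by -0.13 ± 0.11. In Lis1 ko/cko the 6 differences ran from -0.32 (Bcas1) to 0.19 (Cspg4). In Lis1 ko/+ they ran from -0.18 (Bcas1) to 0.32 (Gpr17).

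Against inbred wild type at P0, no member was called in inbred Ndel1 ko/+ (0.255% of genes called; limma, 0 of the 6 at an unadjusted p under 0.05) or in inbred 14-3-3 epsilon ko/ko (0.0255% called; 1 of the 6). Bcas1 read 6.40, 6.75 and 6.35 in the 14-3-3 epsilon mutant, the lowest group mean of Bcas1 at any age, against 7.09, 7.04 and 7.15 in inbred wild type. All 3 mutant arrays lay below the control arrays, and the difference of -0.59 ± 0.13 (SE) did not pass over all genes (limma adjusted p = 0.173). The share of all genes without overlap was not counted. Without mutant replicate 2 the Bcas1 difference was -0.72 and passed (limma adjusted p = 0.0443). Of 6 fits with 1 array left out, this was the only 1 with a call, so it is no test. Gpr17 also lay below its control on every array (-0.34 ± 0.20, limma adjusted p = 0.565), and in inbred Ndel1 ko/+ the widest difference was Cspg4 at 0.25 (limma adjusted p = 0.439). The second Cspg4 probe set, 1423341_at, went the other way, at 5.59 ± 0.10 against 5.83 ± 0.28 in inbred wild type (SD, n = 3).

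At P14 all 8 genes were tested, and Lis1 ko/cko was the mutant with a call. Olig2 read 7.57, 7.20 and 8.17 in Lis1 ko/cko, with mixed A at 8.35, 8.33 and 8.38 and mixed B at 8.48, 8.09 and 8.07. Replicates 1 and 2 lay below every wild-type array, and replicate 3 lay within mixed B. Olig2 fell by 0.64 ± 0.16 (SE; limma adjusted p = 0.0355), by 0.71 against mixed A and by 0.57 against mixed B, and was the only 1 of 8 members called, where 6.32% of 12297 genes were called and the median gene differed by 0.04. The call was lost without Lis1 ko/cko replicate 1 (-0.60, limma adjusted p = 0.17) or 2 (-0.41, adjusted p = 0.333), mixed A replicate 1, 2 or 3 (-0.64, -0.64 and -0.63, adjusted p = 0.0517, 0.0635 and 0.0726) and mixed B replicate 1 (-0.57, adjusted p = 0.163).

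In Gpr17 and Bcas1 too, replicate 3 was the highest of Lis1 ko/cko at P14. Gpr17 read 8.52, 8.93 and 10.07, with mixed A at 10.23, 10.11 and 10.23 and mixed B at 9.60, 9.47 and 9.77. Bcas1 read 10.50, 10.33 and 10.85, with mixed A at 11.02, 10.98 and 10.96 and mixed B at 10.92, 10.79 and 10.86. In both genes replicates 1 and 2 lay below all 6 mixed wild-type arrays and replicate 3 among or near them. The differences were -0.73 ± 0.21 for Gpr17 (limma adjusted p = 0.25) and -0.36 ± 0.09 for Bcas1 (limma adjusted p = 0.0548). Without replicate 3, an array singled out by these same values, 3 members were called among 15.4% of 12321 genes: Olig2 (-0.90), Gpr17 (-1.18) and Bcas1 (-0.51). That setting is no test of them. Without replicate 1 Gpr17 differed by -0.40 and Bcas1 by -0.33, and neither was called.

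For other genes the sign differed with the wild type used as control. Olig1, Nkx2-2 and Enpp6 in Lis1 ko/cko averaged below mixed A and above mixed B. Against mixed A alone, which lies on the same side of the first principal component as Lis1 ko/cko, 5 members were lower, where 13.9% of genes were called: Gpr17 (-1.02), Olig2 (-0.71), Nkx2-2 (-0.59), Enpp6 (-0.45) and Bcas1 (-0.42). Against mixed B alone 5 were called as well, 2 higher and 3 lower, where 59.7% of genes were called. Cspg4 read 6.24, 6.16 and 6.59 in Lis1 ko/cko and lay above every mixed wild-type array (0.54 ± 0.15, limma adjusted p = 0.0924). Its second probe set, 1423341_at, averaged 6.85 ± 0.22 there (SD, n = 3), near mixed A (6.82 ± 0.23) and above mixed B (6.12 ± 0.13). Pdgfra differed by -0.04 ± 0.06 on its brightest probe set, while 1421916_at stood at 7.70 ± 0.03 in Lis1 ko/cko (SD, n = 3) with mixed A at 7.10 ± 0.11 and mixed B at 6.88 ± 0.16, a difference of 0.71 (limma adjusted p = 0.0228 with every probe set tested on its own).

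**Figure D4:**
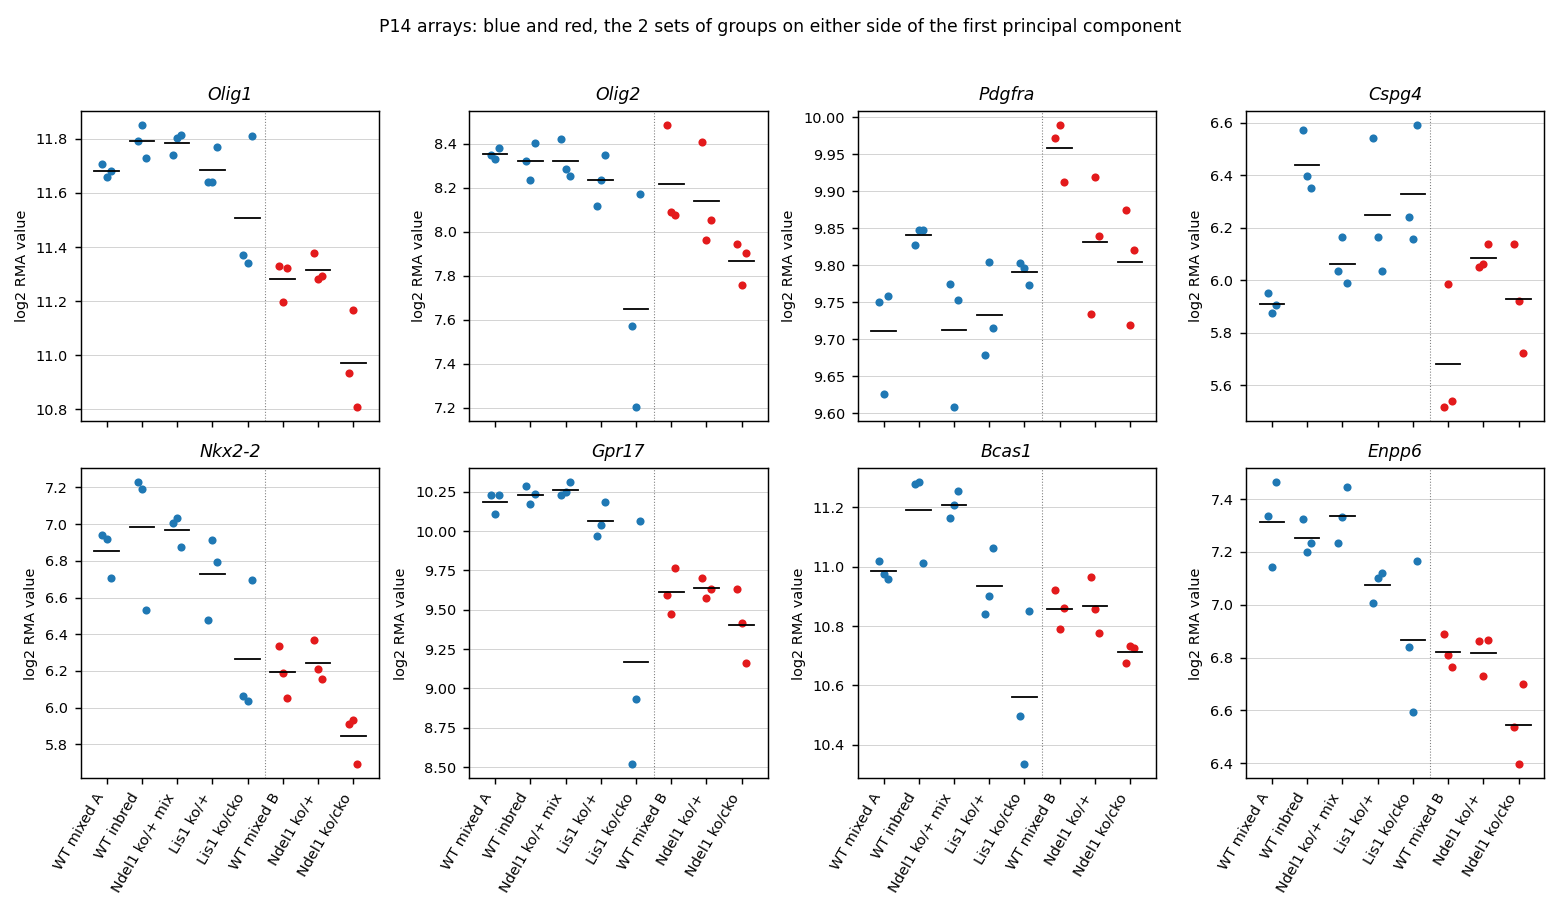
Log2 RMA value of each gene (vertical axes) on the 24 P14 arrays by group (horizontal axis); points are arrays, lines are means of 3, and colour gives the side of the first principal component on which the group lies. Replicate 3 of Lis1 ko/cko stands above the other 2 in Olig2 (8.17), Gpr17 (10.07) and Bcas1 (10.85), and Ndel1 ko/cko lies lowest of its side in Olig1, with a highest array of 11.17.

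No other P14 mutant had a member called against both mixed wild types. The background was 0% of 12297 genes in Lis1 ko/+ (limma; 194 genes and 1 of the 8 at an unadjusted p under 0.05), 0% in Ndel1 ko/+ (128 genes and 0 of the 8), 0.114% in the Ndel1 ko/+ group with the mixed background label (1 of the 8) and 0.0895% in Ndel1 ko/cko (3 of the 8). Olig1 in Ndel1 ko/cko read 10.94, 11.17 and 10.81, below every mixed A array (11.66 at the lowest) and every mixed B array (11.20 at the lowest), and differed by -0.51 ± 0.09 (SE; limma adjusted p = 0.658). The same held for Nkx2-2 (5.91, 5.93 and 5.69), Bcas1 (10.68, 10.73 and 10.73), Enpp6 (6.54, 6.40 and 6.70) and Olig2 (7.94, 7.76 and 7.90). The share of all genes whose arrays lay below all 6 control arrays was not counted, so these 5 members are given as a description. Against mixed B, on its own side of the first principal component, the differences were -0.31 for Olig1, -0.35 for Olig2, -0.35 for Nkx2-2 and -0.28 for Enpp6, with no call among 0.179% of genes, and against mixed A alone 6 members were called among 52.8% of genes. The Ndel1 ko/+ group with the mixed background label had Bcas1 at 11.16, 11.21 and 11.25, above all mixed wild-type arrays (0.29 ± 0.09, limma adjusted p = 0.889), and Lis1 ko/+ had Cspg4 at 6.54, 6.16 and 6.03, above them too (0.45 ± 0.15, limma adjusted p = 1), while its second probe set averaged 6.89 ± 0.07 (SD, n = 3), near mixed A.

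The third comparison set the libraries labelled ko/cko against those labelled ko/+ of the same line. The targeted gene itself was lower in ko/cko in the Lis1 pair at E14, about level in the Ndel1 pair at P14, and higher in ko/cko in the Ndel1 pairs at E14 and P0 and the Lis1 pairs at P0 and P14, by the means given above. In Lis1, ko/cko against ko/+ gave no called member at E14 (0.0426% of genes called; limma, 0 of 6 at an unadjusted p under 0.05) or at P0 (0.569% called; 2 of 6), and 3 of 8 at P14 (8.02% called). At P0 Olig1 in Lis1 ko/cko read 9.90, 9.99 and 9.71, below the 10.08, 10.07 and 10.09 of ko/+ (-0.21, limma adjusted p = 0.288). At P14 Gpr17 fell by 0.89 ± 0.21 (SE; limma adjusted p = 0.0154) from 9.97, 10.04 and 10.19 in ko/+. Olig2 fell by 0.58 ± 0.16 from 8.11, 8.23 and 8.35 (limma adjusted p = 0.0287), and Bcas1 by 0.37 ± 0.09 from 10.84, 10.90 and 11.06 (limma adjusted p = 0.0185). All 3 pairs of groups overlapped through ko/cko replicate 3.

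These 3 calls were lost when single arrays were left out. Without ko/cko replicate 1, Gpr17 differed by -0.57, Olig2 by -0.55 and Bcas1 by -0.34 (limma adjusted p = 0.139, 0.148 and 0.12), and without ko/cko replicate 2 by -0.77, -0.36 and -0.26 (limma adjusted p = 0.117, 0.229 and 0.16). Without ko/+ replicate 3 they differed by -0.83, -0.53 and -0.31 (limma adjusted p = 0.0588, 0.103 and 0.0878), and without ko/+ replicate 2 Olig2 was lost (-0.58, limma adjusted p = 0.0751). Without ko/cko replicate 3, singled out by its own values, 6 members were lower among 21.7% of genes called: Gpr17 (-1.34), Olig2 (-0.85), Nkx2-2 (-0.68), Bcas1 (-0.52), Enpp6 (-0.36) and Olig1 (-0.33).

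Other lineage genes were also called in Lis1 ko/cko at P14. Over all genes 634 rose and 352 fell against ko/+, and 433 rose and 344 fell against both wild types (6.32% called). Of 16 myelin genes 6 fell against ko/+ (median -0.45 against 0.00 over all genes), led by Mobp (-0.75), Ugt8a (-0.71) and Fa2h (-0.68). Of 19 committed-cell genes 3 fell, among them Rras2 (-0.51) and Plxnb3 (-0.46), and of 20 precursor markers 1, C1ql1, rose (0.51). The mean of 17 myelin genes was 8.04, 7.80 and 8.38 in ko/cko replicates 1 to 3, against 8.25, 8.53 and 8.67 in ko/+. In mixed A it was 8.61, 8.49 and 8.59, and in mixed B 8.11, 7.89 and 8.19, so that ko/cko overlapped mixed B. Against both wild types Ugt8a (-0.79), which stands in the myelin and the committed-cell list, and the committed-cell gene Rras2 (-0.77) fell. So did 3 genes of the precursor list (Rlbp1 at -1.12, Lrrn1 at -0.72, Ednrb at -0.64), and none rose. No transcription factor or signalling gene was called in either comparison. Of 10 astrocyte markers 2 rose against both wild types, of 9 microglial markers 2 rose and of 6 genes of dividing cells 3 fell. The mean of the astrocyte list was 10.74, 10.67 and 10.48 in ko/cko against 10.44 to 10.48 in ko/+, and its part in the fall of the members was not tested.

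In Ndel1, ko/cko against ko/+ gave no member at E14 (0.128% of genes called; limma, 0 of 6 at an unadjusted p under 0.05), 1 of 6 at P0 (9.13% called) and none of 8 at P14 (0.309% called; 3 of 8). At P0 Olig1 read 9.75, 9.90 and 9.64 in ko/cko against 10.26, 10.12 and 10.08 in ko/+. The arrays did not overlap, and Olig1 fell by 0.38 ± 0.09 (SE; limma adjusted p = 0.0122), which became -0.33 (adjusted p = 0.072) without ko/+ replicate 1 and -0.32 (adjusted p = 0.0763) without ko/cko replicate 3. Gpr17 (5.89, 6.0 and 5.91 against 6.50, 6.54 and 6.59) and Bcas1 (7.14, 7.29 and 7.32 against 7.72, 7.58 and 7.48) did not overlap either, with differences of -0.61 and -0.34 (limma adjusted p = 0.0544 and 0.0938). The share of all genes without overlap was not counted, so the lack of overlap is given as a description.

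Olig1 was lower in Ndel1 ko/cko than in ko/+ on every array at all 3 ages. At P14 the difference was -0.35 (limma adjusted p = 0.139), with 10.94, 11.17 and 10.81 against 11.38, 11.28 and 11.29, and without ko/cko replicate 2 it was -0.44 and passed (limma adjusted p = 0.0365). Of 6 fits with 1 array left out, that was the only 1 with a call, so it is no test. All 8 members had a difference below 0 at that age, where the median gene differed by -0.006. In Olig1, Olig2, Nkx2-2, Bcas1 and Enpp6 the arrays did not overlap, and the share of all genes without overlap was not counted. Over all 11780 genes 698 rose and 378 fell at P0 (9.13% called). Of the other lineage genes at P0, Id2, an inhibitor of differentiation, rose by 0.76, Fgfr1 by 0.55 and Cdon by 0.72. Pdgfa, the ligand of PDGFRA, fell by 0.42, and Gpr37l1 (-0.84), Lhfpl3 (-0.68) and Ednrb (-0.59) of the precursor list fell. These are called genes of largest change, up to 3 per list, and do not stand for their lists as a whole. No committed-cell gene of 20 was called, and 1 of 7 tested myelin genes fell. In the same comparison 3 of 9 astrocyte and 4 of 8 neuronal markers fell and 2 of 8 genes of dividing cells rose, and their part was not tested.

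The change from P0 to P14 was also compared between mutant and wild type. No member was called in Lis1 ko/cko (2.87% of 13053 genes called; limma, 0 of 8 at an unadjusted p under 0.05) or in Ndel1 ko/cko (0.046% called; 1 of 8). In Ndel1 ko/cko Olig2 went from 7.83, 7.71 and 7.72 at P0 to 7.94, 7.76 and 7.90 at P14, 0.83 ± 0.22 (SE) less than in wild type (limma adjusted p = 0.66). In Lis1 ko/cko the Gpr17 rise was 0.57 ± 0.31 smaller (limma adjusted p = 0.936) and the Olig2 rise 0.44 ± 0.22 smaller (limma adjusted p = 1).

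The wild types themselves differed in these genes. Between mixed A and mixed B no member was called at E14 (0.0681% of genes called; limma, 0 of 6 at an unadjusted p under 0.05), 1 of 6 at P0 (28.7% called) and 5 of 8 at P14 (52.7% called). At P14 mixed A was higher in Nkx2-2 (0.66 ± 0.17), Gpr17 (0.58 ± 0.21), Enpp6 (0.49 ± 0.12) and Olig1 (0.40 ± 0.09), with limma adjusted p of 0.00263, 0.0253, 0.00162 and 0.00077, and lower in Pdgfra (-0.25 ± 0.06, adjusted p = 0.00268), while the median gene was 0.14 higher. The arrays of these 5 genes did not overlap, and the share of all genes without overlap was not counted. The Gpr17 call was lost without mixed A replicate 1 (0.56, limma adjusted p = 0.0632) or 3 (0.56, limma adjusted p = 0.0606) and without mixed B replicate 1 (0.57, limma adjusted p = 0.0573) or 2 (0.51, limma adjusted p = 0.088). With the dimmer Pdgfra probe set the difference was 0.23, in the other direction, and did not pass.

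At P0 Bcas1 was lower in mixed A than in mixed B by 0.38 ± 0.13 (SE; limma adjusted p = 0.0276), which became -0.27 (adjusted p = 0.142) without mixed A replicate 2 and -0.29 (adjusted p = 0.157) without mixed B replicate 1. Olig2 differed by -0.35 (limma adjusted p = 0.0571), and by -0.54 (limma adjusted p = 0.00451) without mixed A replicate 1. That array was singled out by its effect, so the second value is no test. The beta-actin probe sets of the 3' and 5' end differed by 0.27 to 0.45 on the P0 arrays of the mixed B side and by 0.12 to 0.21 on the others, and at P14 the ranges overlapped (0.63 to 0.72 and 0.50 to 0.96). The part of RNA quality in the wild-type difference was not tested. At P14 4605 of all 12297 genes were higher in mixed A and 1873 lower (52.7% called), and the shares of the myelin and committed-cell lists called lay near that. Of 16 myelin genes 9 were higher in mixed A and none lower (median 0.51; Ppp1r14a 1.19, Mag 1.13), 10 of 19 committed-cell genes were higher and 1 lower, and Sox8 was lower by 2.22. In mixed A 5 of 9 meningeal and 3 of 9 mural markers were higher at P14, and their part in Pdgfra and Cspg4 was not tested.

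Inbred wild-type brain had no member called against both mixed wild types at P0 (1% of genes called; limma, 0 of 6 at an unadjusted p under 0.05) or at P14 (0.244% called; 2 of 8). Cspg4 at P14 was 6.57, 6.40 and 6.35 in inbred brain, while mixed A gave 5.95, 5.88 and 5.91 and mixed B gave 5.52, 5.98 and 5.54. The inbred arrays lay above both, and the difference of 0.65 ± 0.15 (SE) did not pass over all genes (limma adjusted p = 0.154). The second Cspg4 probe set averaged 6.95 ± 0.07 in inbred brain (SD, n = 3), with mixed A at 6.82 ± 0.23 and mixed B at 6.12 ± 0.13. Mixed A, mixed B and the mutants share control arrays across these comparisons, so no overlap between their calls is given.

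Across the 26 groups, after the mean of each age was subtracted, the 8 genes went together only in part. The closest pair was Olig1 and Nkx2-2 (Pearson r = 0.706 over 26 group means), followed by Gpr17 and Enpp6 (0.619), Olig2 and Gpr17 (0.614) and Nkx2-2 and Enpp6 (0.596). The neighbours Olig1 and Olig2 had r = 0.113, and Olig2 and Cspg4 had r = -0.342. These correlations describe groups that share arrays of 1 age and, at E14, the regional split, and they carry no test.

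Among 13053 genes, the nearest to each member on the same measure were as follows. Olig1 was nearest to Slc6a9 (0.873), a glycine transporter gene, Phyhipl (0.868) and Pdxk (0.853). Olig2 was nearest to Pmepa1 (0.909), 9330102E08Rik (0.864) and Dcaf17 (0.828). Nkx2-2 was nearest to Shh (0.847), which encodes Sonic hedgehog, Uncx (0.846), 1 of the 23 midbrain and hindbrain genes, and Vav3 (0.842). Pdgfra was nearest to Dcn (0.87), a fibroblast gene, Sparcl1 (0.856) and Gap43 (0.807), and Cspg4 to Zbtb7c (0.798), Tprn (0.782) and Hdac7 (0.78). Of the committed-cell genes, Gpr17 was nearest to Erbb3 (0.874), the neuregulin receptor gene, Map6d1 (0.825) and Plxnb3 (0.809). Bcas1 was nearest to Erich3 (0.803), Nrsn1 (0.791) and Htr1b (0.785), and Enpp6 to Egr4 (0.881), the myelin gene Mobp (0.874) and Creb3l2 (0.855).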

How the data were processed

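Total RNA of mouse brain was hybridized to Affymetrix arrays after biotin labelling, per the labels. The deposited log2 values were made by the authors with RMA, named without a version in the submitters' processing notes. The values appear to have been normalized within each age.

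Of 45101 probe sets, 34958 carry 1 gene symbol, 932 several and 9211 none listed, and the brightest probe set was kept for each of 18194 genes. Linear models were fitted per age, and once over 24 wild-type arrays, with limma 3.58.1 in R 4.3.3 (lmFit, contrasts.fit, eBayes with trend). Genes with a highest group mean of at least 5.253 were tested, with Benjamini-Hochberg adjustment over all of them and calls below an adjusted p of 0.05. A comparison with both mixed wild types uses the mean of both differences, the larger SE and the larger of both limma p-values, set to 1 where the signs differ. "Unadjusted p" is that same p before adjustment. Each group has 3 labelled biological replicates, and the number of arrays limits the precision. Members and lists were chosen with earlier results of these data known, so no list carries a test. Named genes were the 8 members, the targeted genes, up to 3 called genes of largest change per lineage list, and the 3 nearest genes by Pearson r. The fits were also run on simulated data with independent normal noise. Those data hold no regional split, no split between wild types and no outlying arrays, so they say nothing about these features. Replicate numbers did not pair the arrays on average: same-numbered arrays of different groups correlated on average at -0.035 (E14), -0.007 (P0) and 0.014 (P14) in their deviations from group means. Single pairs reached 0.755, 0.47 and 0.365. The arrays that correlated best with their own number were 9 of 24 at E14, 7 of 30 at P0 and 12 of 24 at P14. Pairing within some groups was not tested.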

Additional observations from a re-analysis of the deposited data

How the results depend on the processing

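The counts of members called were the same, within 1.5 times, in all 34 comparisons with no filter on low genes, with every probe set tested on its own and with the replicate block. The replicate numbers did not pair the arrays on average. With the filter at the 75th percentile the count was 5 from P0 to P14 in inbred brain, 2 in Lis1 ko/cko at P14 and 3 between mixed A and B at P14, with 5 members tested at P14. With quantile normalization it was 2 in Lis1 ko/cko at P14, 3 for Ndel1 ko/cko against ko/+ at P0 and 2 between mixed A and B at P0. In 1 fit of all 78 arrays it was 0 for that Ndel1 comparison, 0 between mixed A and B at P0 and 2 between them at P14. With the next probe set of each member that has one, the count was 1 in Ndel1 ko/cko at P0, 2 in Lis1 ko/cko at P14, 2 for Ndel1 ko/cko against ko/+ at P0 and 0 between mixed A and B at P0, and Pdgfra reversed to -0.60 (P0 to P14, inbred) and 0.23 (mixed A against B, P14). Against mixed A alone it was 3 in Ndel1 ko/+, 2 in Ndel1 ko/cko and 1 in Dcx ko/Y at P0, 5 in Lis1 ko/cko, 4 in Ndel1 ko/+, 6 in Ndel1 ko/cko and 1 in inbred brain at P14, and 1 (Lis1 ko/cko) and 2 (Ndel1 ko/cko) for the change from P0 to P14. Against mixed B alone it was 6 from E14 to P0, 1 (Lis1 ko/+) and 2 (ko/cko) at P0, and at P14 4 (Lis1 ko/+), 5 (ko/cko), 7 in the Ndel1 ko/+ group with the mixed background label and 6 in inbred brain. Without the 6 low-region arrays, a setting added after the data were seen, it was 5 from E14 to P0 and the same in the other 9 E14 comparisons. With single arrays left out the count ranged from 0 to 1 in Ndel1 ko/+ and in inbred 14-3-3 epsilon ko/ko at P0, 0 to 2 between mixed A and B at P0, 0 to 1 for Ndel1 ko/cko against ko/+ at P0 and at P14, 0 to 3 in Lis1 ko/cko at P14 and 0 to 6 for Lis1 ko/cko against ko/+ at P14. Of the called members, 200 of these single-array settings kept the call and direction and 25 lost the call. The cause of these shifts was not tested. Probe sets near the low end of the scale (Nkx2-2 and Enpp6 at P0, Gpr17 and Enpp6 at E14) limit what can be seen there.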
